A study of Mus musculus with 19 samples.

Results

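miR-490 is a microRNA made from a hairpin that lies inside an intron of Chrm2, the gene of the muscarinic acetylcholine receptor M2. Its 2 mature products, mmu-miR-490-3p and mmu-miR-490-5p (miR-490-3p and miR-490-5p below), were taken by name from small RNA libraries of the mouse hippocampal CA1 subregion, and they were 2 of the 1148 miRNA names counted. Both were counted in all 19 libraries, and both were among the 509 miRNAs that passed a filter on low counts. They were selected on the counts of miR-490-3p in aged and young vehicle libraries, where it was already known to be lower in aged animals. The age difference is therefore described here without a test.

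All animals were wild type, of the strain labelled C57B/6JRj, and drank water that held 18 g per L of cyclodextrin. 6 libraries came from animals of 20 months that also received SAHA at 0.67 g per L (aged SAHA), 5 from animals of 20 months on vehicle alone (aged vehicle) and 8 from animals of 3 months on vehicle alone (young vehicle). SAHA, or vorinostat, inhibits histone deacetylases, enzymes that remove acetyl groups from histones. Treatment lasted 4 weeks in aged animals, while the labels name no duration for young ones. The labels do not say whether each library is 1 animal, so p-values measure the spread between these libraries.

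A microRNA precursor is cut out of its host transcript by Drosha and then trimmed by Dicer to a duplex of a 5p and a 3p strand. One strand is usually kept in an Argonaute protein, where its seed (bases 2 to 8) pairs with target mRNAs, and the other is mostly lost. An intronic microRNA on the strand of its host can come from the host's own transcript. The M2 receptor is coupled to inhibitory G proteins. It slows the heart, and in the hippocampus it sits on cholinergic terminals and on interneurons, where it dampens transmitter release.

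The 2 mature sequences and the hairpin (RefSeq, GRCm38.p6) show what was counted. In the mature sequences the capitals mark the seed, and in the hairpin they mark the 5p and then the 3p arm.
miR-490-3p: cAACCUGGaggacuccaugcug
miR-490-5p: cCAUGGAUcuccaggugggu
Mir490 hairpin: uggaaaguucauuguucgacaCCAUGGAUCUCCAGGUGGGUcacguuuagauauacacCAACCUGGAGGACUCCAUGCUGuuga
The hairpin is 84 bases long. In its predicted minimum-energy fold (-32.3 kcal per mol, RNAfold) 16 bases of the 20-base 5p arm paired with the 22-base 3p arm, 15 of them as Watson-Crick pairs and 1 as a G-U pair, and 6 of the 7 seed bases of miR-490-3p were paired. No other of the 1679 mature mouse names in the RefSeq table had the seed of either arm. That table held 891 of the 1148 miRNA names counted here, so the seeds of the others were not compared. 1 name in it, miR-582-3p, shared bases 2 to 7 with miR-490-3p, shown in capitals.
miR-582-3p: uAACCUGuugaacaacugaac
The partial relative miR-582-3p averaged 376 CPM in aged SAHA, 413 CPM in aged vehicle and 448 CPM in young vehicle libraries, where CPM are counts scaled to a common library size, after TMM correction for library composition. Its log2 fold change was -0.12 ± 0.10 (SE) for aged against young vehicle and -0.14 ± 0.10 for aged SAHA against aged vehicle. Neither passed the threshold, a Benjamini-Hochberg adjusted p below 0.05 in edgeR's quasi-likelihood test (adjusted p 0.586 and 0.533).

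Mir490 lies on the plus strand of chromosome 6 at chr6:36421742-36421825 (GRCm38, mm10), the same strand as Chrm2, which spans 36388084 to 36528414 in GENCODE M21. It is in intron 2 of both annotated Chrm2 transcripts, 33658 bases after the start of the gene. That intron is 134418 bases long in the transcript that codes for the receptor and 55369 bases long in the other, a processed transcript. miR-490-5p occupies 36421763 to 36421782 and miR-490-3p 36421800 to 36421821. The Chrm2 mRNA was not analysed here. No other precursor in the RefSeq table was close: the nearest on the 5′ side, Mir29b-1, lies 5358648 bases away on the minus strand, and the nearest on the 3′ side, Mir7670, 2085499 bases away. miR-29b-1-5p, the product unique to that first neighbour, had 8 to 19 counts per library and log2 fold changes of 0.08 ± 0.20 (SE) for aged against young vehicle and -0.50 ± 0.23 for aged SAHA against aged vehicle (adjusted p 0.887 and 0.251 by edgeR). Further along the chromosome, miR-704 of the next counted precursor had 0 to 8 counts and was not tested.

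Each library held 3585489 to 6808281 reads assigned to miRNAs, and these limits both fell in the young vehicle group. Reads carry no molecular identifiers, so counting intervals below cover counting error only. The neuron-enriched miRNAs summed to 79260 to 92426 raw CPM (scaled by library total alone) in aged SAHA, 92501 to 101396 in aged vehicle and 88798 to 99803 in young vehicle libraries. Abundant members weigh most in this sum: miR-128-3p averaged 34553 CPM in aged vehicle and 25447 CPM in aged SAHA, and miR-9-5p 39102 and 36335 CPM. miR-124-3p was nearly level (5551 and 5516 CPM), and 15 of the 22 members had lower values in aged SAHA. 1 library, aged SAHA 1, was at the end of several lists: of all 19 it had the lowest sum of neuron-enriched miRNAs (79260 raw CPM, beside 79707 in aged SAHA 2) and the highest sums of oligodendrocyte (7797), microglia and immune (6253) and Hox-cluster miRNAs (1136). It was not alone: aged SAHA 3 (64610), young vehicle 4 (61858), aged SAHA 1 (57757) and aged vehicle 2 (53130) lay above all others (at most 40373) in endothelial and mural miRNAs. These libraries also had the highest muscle and Hox-cluster sums. Tests of the miR-490 arms and of their ratio are given with and without aged SAHA 1, and those of the lists without it at the end. Correlations with other miRNAs are given only with it. The tissue was sequenced in bulk, so fewer cells of a type and less RNA per cell cannot be told apart.

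miR-490-3p was the dominant arm and a miRNA of middling abundance, whereas miR-490-5p was near the low end of the 509 tested. miR-490-3p had 268 to 417 counts in aged SAHA, 228 to 317 in aged vehicle and 202 to 542 in young vehicle libraries, and averaged 65.9 CPM over all 19, which placed it at rank 232 of the 509 tested. Its neighbours in that order were miR-187-3p (68.2 CPM) and miR-551b-3p (66.6 CPM) above and miR-5099 (65.8 CPM) and miR-27b-5p (63.7 CPM) below. miR-490-5p averaged 3.84 CPM, rank 444. It had 8 to 25 counts in aged SAHA, 13 to 30 in aged vehicle and 8 to 36 in young vehicle libraries. A count of 8 has an exact 95% Poisson interval of 3.45 to 15.8, and a count of 36 one of 25.2 to 49.8, so miR-490-5p values of single libraries are imprecise.

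miR-490-3p was lowest in aged vehicle, intermediate in aged SAHA and highest in young vehicle libraries. It measured 80.3, 54.1, 64.0, 57.7, 59.8 and 63.4 CPM in aged SAHA libraries 1 to 6. Its values in aged vehicle libraries 1 to 5 were 62.0, 58.5, 47.3, 51.0 and 57.7 CPM. In the 8 young vehicle libraries it ranged from 59.8 to 87.8 CPM with a median of 76.4 CPM. The lower end of the young range therefore met the upper end of the aged vehicle range, and aged SAHA overlapped both. Group means were 63.2 ± 9.15 CPM in aged SAHA (SD, n = 6), 55.3 ± 5.99 CPM in aged vehicle (SD, n = 5) and 74.4 ± 10.03 CPM in young vehicle libraries (SD, n = 8). With all 19 libraries, aged SAHA passed the threshold against neither neighbour in this order; without aged SAHA 1 it did against young vehicle, as given below.

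miR-490-5p did not follow that order. It measured 4.82, 1.53, 3.96, 4.23, 2.30 and 2.37 CPM in aged SAHA libraries 1 to 6. Its values in aged vehicle libraries 1 to 5 were 5.87, 4.19, 4.56, 4.07 and 2.44 CPM. In young vehicle libraries it ranged from 2.37 to 6.32 CPM with a median of 3.70 CPM. The ranges of all 3 groups overlapped, and the means were 3.20 ± 1.31 CPM in aged SAHA (SD, n = 6), 4.23 ± 1.23 CPM in aged vehicle (SD, n = 5) and 4.09 ± 1.54 CPM in young vehicle libraries (SD, n = 8).

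**Figure D1:**
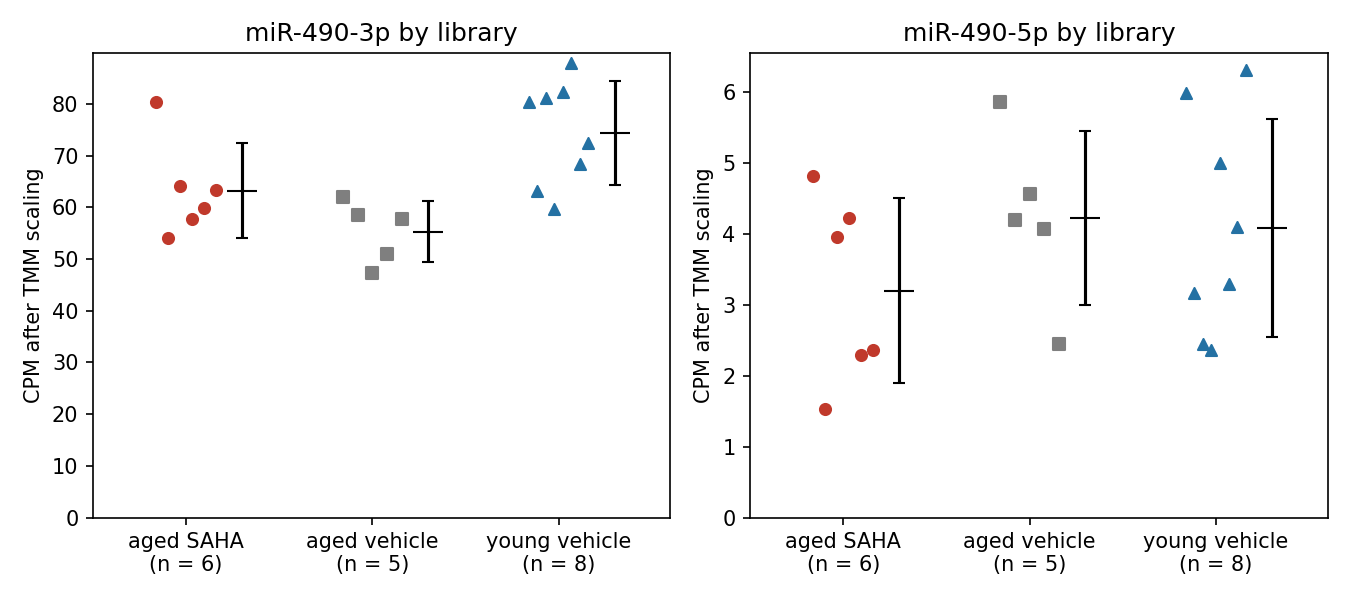
CPM after TMM scaling (vertical axes, from 0) of miR-490-3p (left) and miR-490-5p (right) in each library, in aged SAHA (n = 6), aged vehicle (n = 5) and young vehicle (n = 8). The bar beside each group is the mean ± SD. The aged vehicle libraries lie at 47.3 to 62.0 CPM for miR-490-3p, with aged SAHA 1 at 80.3 CPM above the other 5 aged SAHA libraries, and the groups overlap throughout for miR-490-5p.

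The spread of miR-490-3p within groups was a coefficient of variation of 13.5%, where counting alone would give 5.53%. The 50 tested miRNAs nearest to it in level had a median of 12.3%, and 27 of them varied less than it did. For miR-490-5p the figure was 36.3%, against 23.9% from counting alone and a median of 26.8% in its 50 nearest miRNAs, of which 44 varied less. miR-490-3p thus varied about as other miRNAs of its level did, and miR-490-5p was among the more variable.

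Age was the contrast that led to the choice of miR-490. miR-490-3p in aged vehicle was 0.74 times its young vehicle level, a log2 fold change of -0.43 ± 0.11 (SE). 4 of the 5 aged vehicle libraries lay below the lowest young vehicle library, and 7 of the 8 young vehicle libraries lay above the highest aged vehicle one, aged vehicle 1 and young vehicle 4 being at 62.0 and 59.8 CPM. miR-490-5p in aged vehicle was 1.01 times its young vehicle level (log2 fold change 0.02 ± 0.27), with 0 of 5 aged vehicle libraries below the lowest young one. In this contrast 11 of 509 miRNAs, or 2.16%, passed the threshold, 10 of them lower (1.96%) and 1 higher (0.196%) in aged vehicle. Over all tested miRNAs the median log2 fold change was -0.003, and 5% of them lay below -0.42. With any 1 library left out, the value for miR-490-3p stayed between -0.47 and -0.37, and that for miR-490-5p between -0.11 and 0.16.

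The SAHA comparison asks whether the arms differ between aged animals with and without the drug. It shares its aged vehicle libraries with the age contrast, in which miR-490-3p was chosen for being low, so a positive value for that arm is favoured by the choice. miR-490-3p in aged SAHA was 1.14 times its aged vehicle level (log2 fold change 0.19 ± 0.11 SE, 95% interval -0.04 to 0.43). 3 of the 6 aged SAHA libraries lay above the highest aged vehicle library and 5 of 6 above the aged vehicle median. miR-490-5p in aged SAHA was 0.76 times its aged vehicle level (log2 fold change -0.39 ± 0.30, interval -1.02 to 0.23), with 3 of 6 libraries below the lowest aged vehicle one. Neither arm passed the edgeR quasi-likelihood test (adjusted p 0.388 for miR-490-3p and 0.539 for miR-490-5p), in a comparison in which 22 of 509 miRNAs, or 4.32%, did, 16 of them lower (3.14%) and 6 higher (1.18%) in aged SAHA. Without aged SAHA 1 the values were 0.11 ± 0.11 for miR-490-3p and -0.55 ± 0.31 for miR-490-5p (adjusted p 0.616 and 0.335 by edgeR). The value for miR-490-5p was -0.24 without aged vehicle 1 and -0.25 without aged SAHA 2.

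Aged SAHA libraries, which played no part in the choice, were also compared with young vehicle libraries, a contrast of both age and drug. miR-490-3p in aged SAHA was 0.85 times its young vehicle level (log2 fold change -0.24 ± 0.10 SE, 95% interval -0.44 to -0.03). 2 of the 6 aged SAHA libraries lay below the lowest young vehicle library and 5 of 6 below the young vehicle median, the exception being aged SAHA 1. Its unadjusted p was 0.0276 and its adjusted p 0.105 by edgeR, so it did not pass, while 71 of 509 miRNAs, or 13.9%, did, 44 of them lower (8.64%) and 27 higher (5.3%) in aged SAHA. Aged SAHA 1 was one of the libraries that stood apart in marker sums. It also held the highest aged SAHA value of miR-490-3p, so leaving it out lowers that group's mean. Without it miR-490-3p was lower in aged SAHA with a log2 fold change of -0.32 ± 0.10 and an adjusted p of 0.0256 by edgeR. Without aged SAHA 3, young vehicle 4 or aged vehicle 2, which also stood apart, the adjusted p was 0.130, 0.0748 and 0.156 by edgeR. The young vehicle libraries are those of the age contrast, so none of these values is independent of the choice either. The part of the marker difference in the level of miR-490-3p in aged SAHA 1 was not tested. miR-490-5p in aged SAHA was 0.77 times its young vehicle level (log2 fold change -0.37 ± 0.27, interval -0.93 to 0.18, adjusted p 0.341 by edgeR), with 3 of 6 libraries below the young vehicle median. Its log2 fold change was -0.53 ± 0.28 without aged SAHA 1 (adjusted p 0.190 by edgeR) and -0.23 without aged SAHA 2.

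**Figure D2:**
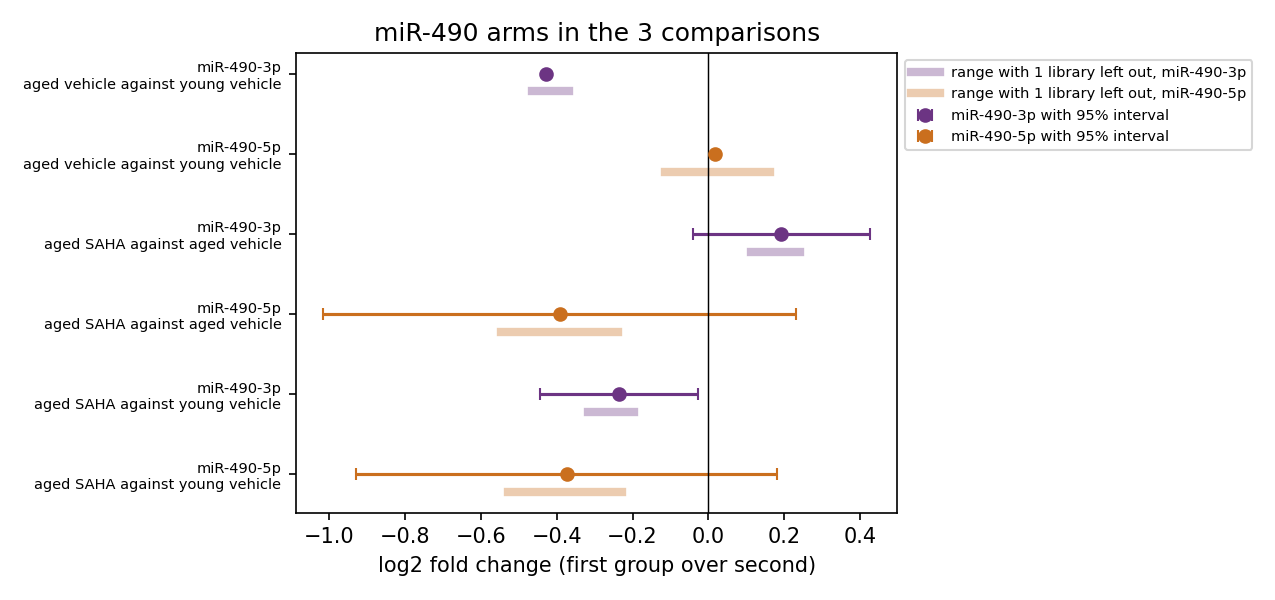
Log2 fold change (horizontal axis, first group over second) of miR-490-3p and miR-490-5p in the 3 comparisons, as points, with 95% intervals in both aged SAHA comparisons and none for age, and the range when 1 library is left out as a pale bar below each. miR-490-3p sits at -0.43 in the age contrast, at 0.19 in the SAHA contrast and at -0.24 between aged SAHA and young vehicle, and the intervals of miR-490-5p are the wider ones and include 0. The age values are those that chose miR-490.

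**Figure D3:**
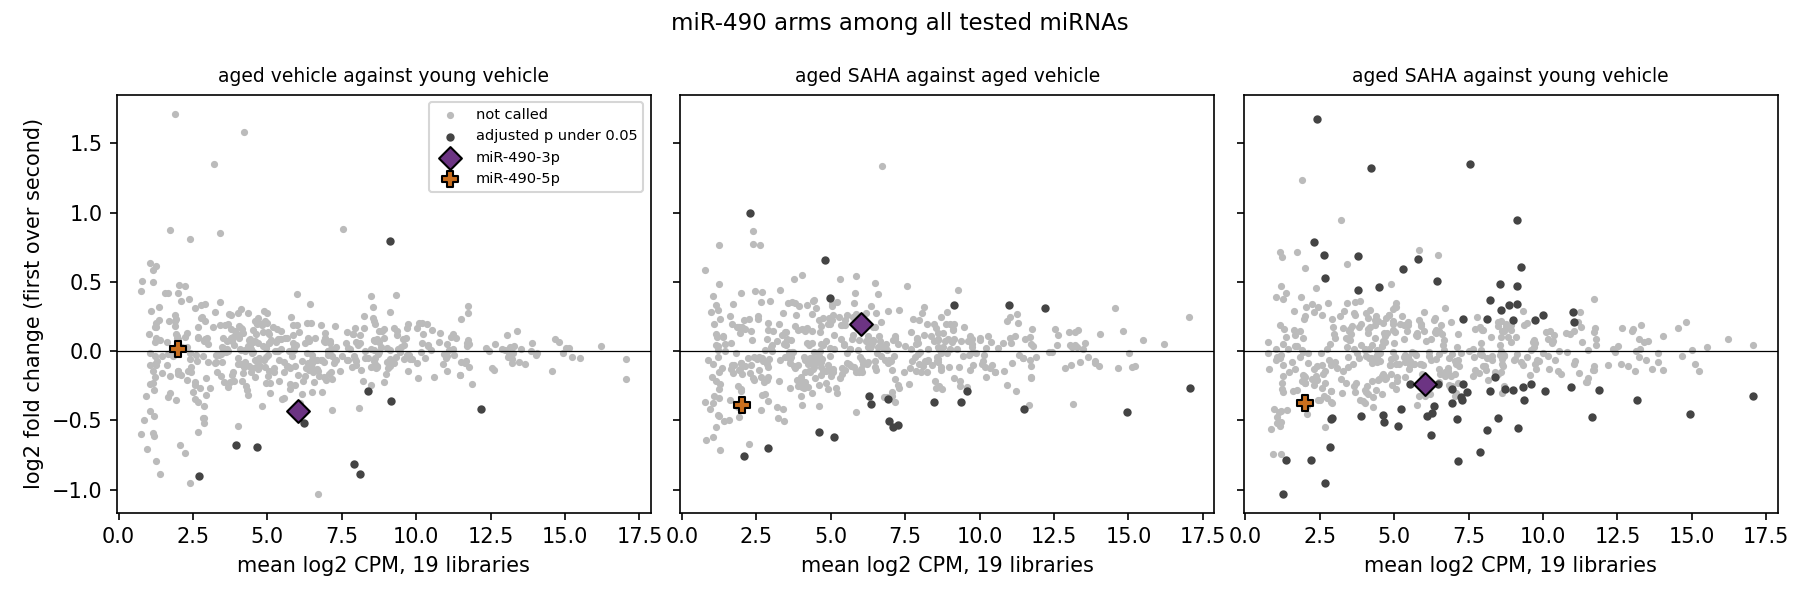
Log2 fold change (vertical axes, first group over second) against mean log2 CPM over the 19 libraries (horizontal axes) for the 509 tested miRNAs in each comparison, one panel per comparison. Dark points passed an adjusted p under 0.05 (11, 22 and 71 miRNAs), and the diamond and the plus mark miR-490-3p and miR-490-5p. miR-490-5p lies at the low-count end, where the scatter of all miRNAs is wide.

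The balance of the arms needs no scaling between libraries, since both counts come from the same one. miR-490-5p made up 4.73% ± 1.59 of the reads of both arms in aged SAHA (SD, n = 6), 7.12% ± 1.92 in aged vehicle (SD, n = 5) and 5.19% ± 1.74 in young vehicle libraries (SD, n = 8). The shares were 5.66%, 2.75%, 5.82%, 6.83%, 3.70% and 3.60% in aged SAHA libraries 1 to 6. In aged vehicle libraries 1 to 5 they were 8.65%, 6.69%, 8.80%, 7.39% and 4.06%. In young vehicle libraries they ranged from 2.93% to 8.02% with a median of 5.22%. 4 of the 5 aged vehicle libraries thus stood in the upper part of the range, and aged vehicle 5 lay lower. The groups overlapped: young vehicle 8 (8.02%), young vehicle 1 (6.94%) and aged SAHA 4 (6.83%) lay above aged vehicle 2 (6.69%). The 95% Wilson interval was 5.88% to 13.0% for the highest library, aged vehicle 3, and 1.40% to 5.33% for the lowest, aged SAHA 2. Ligation of sequencing adapters is known to favour some RNA ends, so these shares compare libraries and do not measure molecules.

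**Figure D4:**
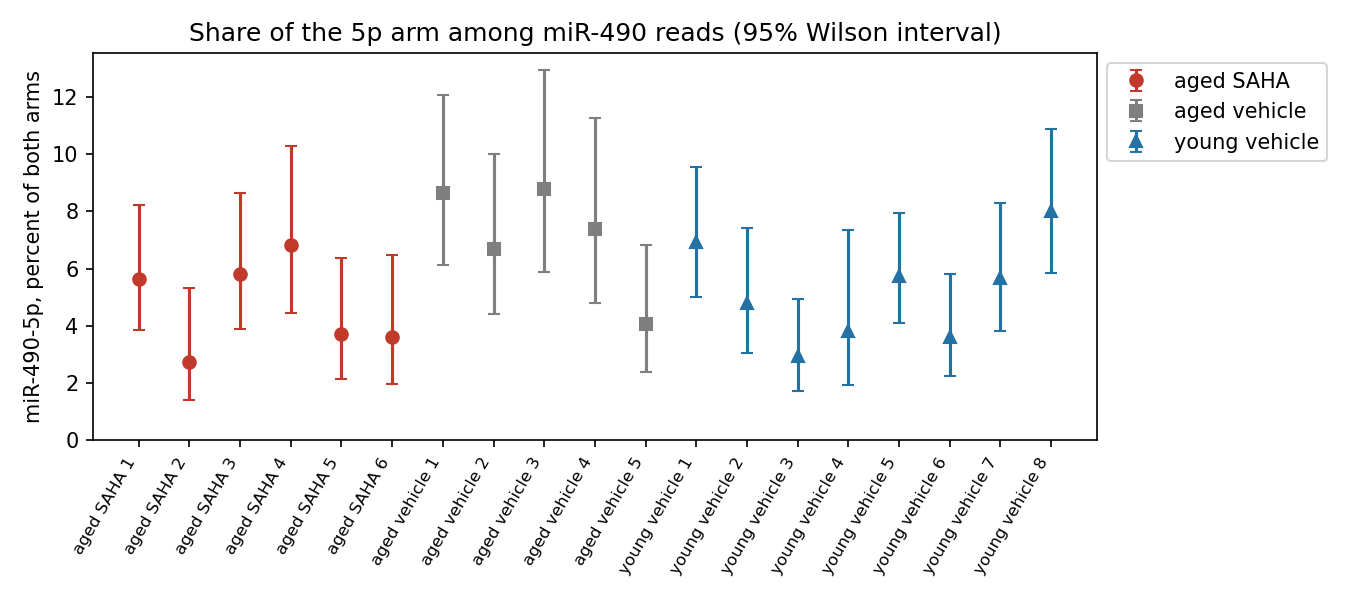
Share of miR-490-5p among the reads of both miR-490 arms (vertical axis, percent) in each of the 19 libraries, with 95% Wilson intervals as bars. Aged vehicle libraries 1 to 4 lie at 6.69% to 8.80%, above 5 of the 6 aged SAHA libraries. Young vehicle 1 (6.94%) and young vehicle 8 (8.02%) lie within that range, and most intervals overlap.

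As the mean log2 ratio of miR-490-3p to miR-490-5p, with 0.5 added to each count, the balance was 4.36 ± 0.51 in aged SAHA (SD, n = 6), 3.72 ± 0.47 in aged vehicle (SD, n = 5) and 4.23 ± 0.51 in young vehicle libraries (SD, n = 8). For aged SAHA against aged vehicle the difference was 0.63 (exact permutation test, two-sided, p 0.0693, or 0.139 after adjustment over 2 comparisons). The aged vehicle counts of miR-490-3p that enter it also led to the choice of miR-490, so a positive difference is favoured by the choice. 1 library decided this call: without aged vehicle 5 the difference was 0.83 and the adjusted p of the exact permutation test 0.0381. For aged SAHA against young vehicle the difference was 0.13 (exact permutation p 0.625, adjusted 0.625), and without aged SAHA 2 it was -0.011. Without aged SAHA 1 the difference was 0.70 against aged vehicle and 0.19 against young vehicle (adjusted p 0.127 and 0.502 by exact permutation test). For aged vehicle against young vehicle the difference was -0.50, given as a value because one of its terms is the measure that chose miR-490.

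A relation between the arms from library to library did not pass a permutation test. Deviations of log2 CPM from the group mean had a Pearson r of 0.40 (permutation p 0.0961) and a Spearman rho of 0.36 (permutation p 0.134) over the 19 libraries. Without young vehicle 4 and aged SAHA 1, the 2 libraries whose miR-490-3p deviations lay farthest from the median deviation, r was 0.17. With library size alone as scaling r was 0.50 (permutation p 0.0283), and 0.26 without its 2 farthest libraries. Without removal of the group means, r was 0.27 (permutation p 0.267) and rho 0.30 (permutation p 0.214), and r was 0.44 without aged vehicle 3 and young vehicle 6. Within groups r was 0.67 in aged SAHA (n = 6, permutation p 0.119) and 0.31 in young vehicle (n = 8, permutation p 0.436). Leaving out the 2 farthest libraries of each turned these to -0.21 and -0.34. Adjusted over 3 correlations, that of the deviations and those within both groups, the permutation p was 0.178 for the deviations and for aged SAHA and 0.436 for young vehicle.

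The miRNA whose level followed that of miR-490-3p most closely was miR-135b-5p. Over the 19 libraries its log2 CPM had a Pearson r of 0.86 and a Spearman rho of 0.85 with miR-490-3p, and 0.70 (Pearson) after the group means were removed. It averaged 14.6 ± 3.82 CPM in aged SAHA, 11.6 ± 2.24 CPM in aged vehicle and 18.6 ± 2.65 CPM in young vehicle libraries. That is the order of groups of miR-490-3p, which a pick by r over all 19 libraries favours. Its log2 fold change for aged against young vehicle was -0.68 ± 0.16 (SE). Next came miR-34a-5p, known as a target of p53, with r of 0.72 (0.62 within groups), and miR-200b-3p, which helps keep epithelial identity, with 0.70 (0.61 within groups). miR-1224-3p, a mirtron product, and miR-200a-5p followed with 0.69 and 0.64 (0.71 and 0.50 within groups). These 5 were picked as the highest of 507 miRNAs, of which 24 had an r over 0.5 and whose median r was 0.02. The values describe likeness in level over libraries that share tissue, depth and scaling. Aged SAHA 1 was the highest aged SAHA library for miR-490-3p and for all 5, and r was not computed without it.

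The mature sequences of these look-alikes that the RefSeq table holds show no shared seed (capitals), among themselves or with miR-490.
miR-34a-5p: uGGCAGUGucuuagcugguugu
miR-200b-3p: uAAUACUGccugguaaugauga
miR-1224-3p: cCCCACCUcuucucuccucag
miR-200a-5p: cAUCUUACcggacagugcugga
Their group levels did not all follow miR-490-3p. miR-34a-5p averaged 75.1 ± 15.9 CPM in aged SAHA, 62.0 ± 9.57 CPM in aged vehicle and 76.9 ± 6.71 CPM in young vehicle libraries. miR-200b-3p averaged 58.5 ± 13.9 CPM in aged SAHA, 62.5 ± 4.70 CPM in aged vehicle and 80.9 ± 12.01 CPM in young vehicle libraries. miR-200b-3p was thus lowest in aged SAHA, where miR-490-3p was intermediate. At the other end, miR-344d-3p (r of -0.74), miR-3083-5p (-0.73) and miR-384-5p (-0.65) ran most opposite to miR-490-3p. miR-344d-3p averaged 369 ± 76.7 CPM in aged SAHA, 429 ± 56.3 CPM in aged vehicle and 326 ± 58.8 CPM in young vehicle libraries. The other arm, miR-490-5p, had an r of 0.27 with miR-490-3p and would take rank 107 among the 507.

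**Figure D5:**
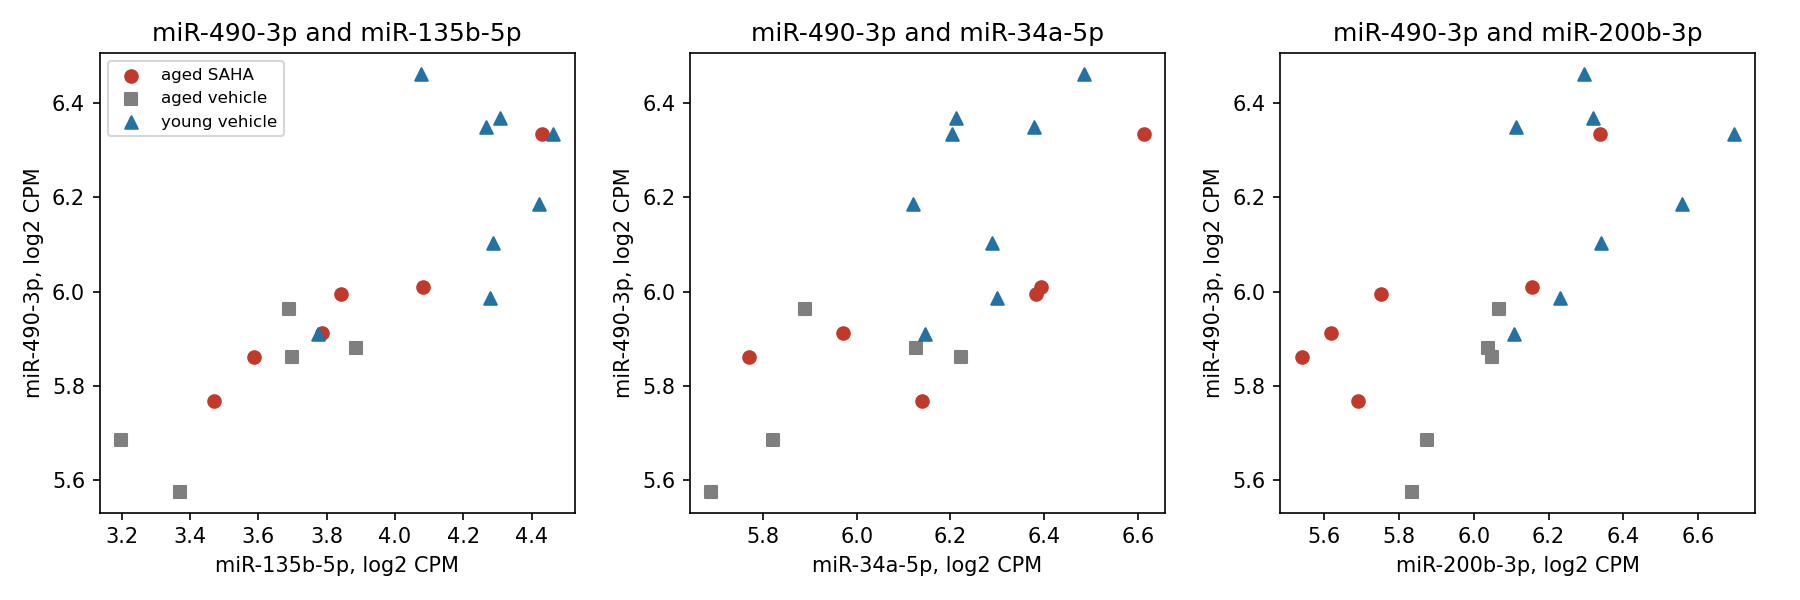
Log2 CPM of miR-490-3p (vertical axes) against miR-135b-5p, miR-34a-5p and miR-200b-3p (horizontal axes), 1 point per library, coloured by group. Pooled over the 19 libraries the points rise (Pearson r 0.86, 0.72 and 0.70), with aged vehicle at the low end of miR-490-3p. These values include differences between groups, and after the group means were removed r was 0.70, 0.62 and 0.61.

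The list counts below are to be read beside the share of all 509 tested miRNAs that edgeR called. That share was 2.16% for age, 4.32% for aged SAHA against aged vehicle and 13.9% for aged SAHA against young vehicle. Other miRNAs in introns of receptor or ion channel genes gave no call, but with 8 tested this cannot be told from those shares. This list held 18 counted names from Htr2c, Gabre, Trpm3 and Trpm1, of which 8 were tested and 0 passed in any of the 3 comparisons by edgeR, DESeq2 or limma-voom (unadjusted p under 0.05 by edgeR in 0 for age and 1 in each of the others). Its median log2 fold change was -0.05 between aged and young vehicle, 0.04 between aged SAHA and aged vehicle and -0.02 between aged SAHA and young vehicle, beside -0.003, -0.01 and -0.03 over all tested miRNAs. From the intron of the serotonin receptor gene Htr2c, miR-1298-5p averaged 104 CPM in aged SAHA, 98.7 CPM in aged vehicle and 103 CPM in young vehicle libraries, and miR-448-3p averaged 15.2, 17.8 and 18.9 CPM in those groups. Of the list from introns of neuronal host genes 20 of 22 names were tested. 0 passed for age (3 at an unadjusted p under 0.05, 0 by DESeq2 and limma-voom), 2 were lower in aged SAHA than in aged vehicle (miR-128-3p and miR-153-5p), and 1 was higher and 3 were lower in aged SAHA than in young vehicle, with medians of -0.02, -0.02 and -0.07. DESeq2 called 3 and limma-voom 2 against aged vehicle, and 7 and 6 against young vehicle. The 4 of 20 called by edgeR against young vehicle stand beside 13.9% of all tested miRNAs. The neuron-enriched list had 22 of 22 names tested, with 0 called for age (3 at an unadjusted p under 0.05, 1 each by DESeq2 and limma-voom), 3 lower against aged vehicle (miR-9-3p and the 2 just named) and 1 higher and 3 lower against young vehicle (medians 0.05, -0.07 and -0.10).

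Lists of other tissues and cell types were read beside miR-490-3p, since Chrm2 is also active in heart and smooth muscle and miR-200 family members were among its look-alikes. The choroid plexus and epithelium list had 10 of 18 names tested. For aged against young vehicle 8 of the 10 had lower values (median -0.36) and 0 passed by edgeR (3 at an unadjusted p under 0.05, 0 by DESeq2 and 2 by limma-voom). The choroid-linked miR-204-5p and miR-1298-5p, counted in the receptor or channel list, were near level with age (-0.08 ± 0.12 and -0.06 ± 0.12 SE). miR-429-3p averaged 138 CPM in aged vehicle and 185 CPM in young vehicle, a log2 fold change of -0.42 ± 0.13 (SE), close to that of miR-490-3p. For aged SAHA against aged vehicle the median was 0.13 and 0 passed (1 at an unadjusted p under 0.05, 0 by DESeq2 and 1 by limma-voom). For aged SAHA against young vehicle the median was -0.19 and 2 were lower, miR-429-3p (-0.79 ± 0.13) and miR-200b-3p (-0.47 ± 0.12), beside 8.64% of all tested miRNAs called lower. The summed list lay at 452 to 606 raw CPM in aged SAHA, 438 to 669 in aged vehicle and 501 to 939 in young vehicle libraries. miR-449b, miR-200c-5p and miR-429-5p had 0 counts in every library. The part of these cells in the level of miR-490-3p was not tested.

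The muscle list had 7 of 16 names tested, with medians of -0.09 for aged against young vehicle, 0.33 for aged SAHA against aged vehicle and 0.17 for aged SAHA against young vehicle. 1 member, miR-1a-3p, was higher in aged SAHA in both of its comparisons and 0 passed for age by edgeR, DESeq2 or limma-voom or at an unadjusted p under 0.05. Heart and skeletal muscle miRNAs spanned a wide range: miR-208a-3p had 0 to 1, miR-206-3p 0 to 4, miR-1a-3p 12 to 48 and miR-133a-3p 308 to 690 counts per library. The list's sum (18667 to 53042 raw CPM in aged SAHA, 16891 to 43131 in aged vehicle and 15881 to 51043 in young vehicle libraries) was mostly miR-143-3p, which vessel walls also hold, and 3 names (miR-1a-2-5p, miR-1b-5p and miR-206-5p) were at 0 throughout. The endothelial and mural list had 7 of 10 names tested and 0 called in any comparison by edgeR, DESeq2 or limma-voom or at an unadjusted p under 0.05, with medians of -0.12 for age, 0.25 and 0.13. The erythrocyte list had 5 of 5 tested and 0 called by edgeR, while 2, 1 and 2 had an unadjusted p under 0.05, DESeq2 called 0, 1 and 1 and limma-voom 0 (medians -0.28, -0.05 and -0.22).

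Among glial and immune lists, oligodendrocyte miRNAs (6 of 6 tested) had 0 called for age, 0 for aged SAHA against aged vehicle (1 in each at an unadjusted p under 0.05, 0 and 1 by DESeq2, 0 by limma-voom) and 2 higher for aged SAHA against young vehicle (4 by DESeq2, 1 by limma-voom), with medians of 0.18, 0.12 and 0.41. Microglia and immune miRNAs (9 of 11 tested) had 1 higher (miR-146a-5p) and 1 lower (miR-150-5p) for age, 0 between aged SAHA and aged vehicle (2 at an unadjusted p under 0.05, 0 by DESeq2, 1 by limma-voom) and 3 higher and 1 lower in aged SAHA than in young vehicle, with medians of 0.01, 0.27 and 0.32. Over all tested miRNAs edgeR called 2.16%, 4.32% and 13.9% in these comparisons. Of the Hox and hindbrain list 2 of 8 names were tested, and miR-10a-5p was higher in aged SAHA than in young vehicle (1.35 ± 0.25), while by edgeR 0 passed in the other 2 comparisons (1 for age by DESeq2, by limma-voom and at an unadjusted p under 0.05, 0 for aged SAHA against aged vehicle).

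Some list values moved without aged SAHA 1, where edgeR called 33 of 506 miRNAs against aged vehicle and 78 against young vehicle. Against young vehicle, 1 oligodendrocyte miRNA (miR-219-2-3p) stayed higher in aged SAHA, with a list median of 0.23, and the median against aged vehicle was 0.01. Of microglia and immune miRNAs, 1 was then lower in aged SAHA than in aged vehicle (miR-150-5p, list median -0.03), and 3 were higher and 2 lower than in young vehicle (median 0.19). miR-10a-5p of the Hox clusters stayed higher in aged SAHA than in young vehicle (1.12 ± 0.22 SE, adjusted p 0.00265 by edgeR). The epithelial miR-429-3p was then also lower in aged SAHA than in aged vehicle (-0.51 ± 0.12, adjusted p 0.0114 by edgeR). Its changes against young vehicle were -0.93 ± 0.11, and those of miR-200b-3p -0.58 ± 0.11. The muscle medians were 0.13 against aged vehicle and -0.03 against young vehicle, and miR-1a-3p was higher in both (0.90 ± 0.26 and 0.69 ± 0.22). The endothelial and mural medians were 0.13 and 0.04. 5 of the 20 neuronal host miRNAs passed against young vehicle, 1 of them higher, and 2 passed against aged vehicle. The neuron-enriched list had 3 lower against aged vehicle, and 1 higher and 3 lower against young vehicle.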

How the data were processed

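Libraries were made from microdissected, snap-frozen CA1 tissue with Illumina TruSeq reagents, per the labels' protocols. The authors deposited raw read counts for each mature miRNA name, without normalisation. The submitters' processing notes name CASAVA 1.8.2, cutadapt, STAR, HTSeq and mm10, without settings, and name no miRNA annotation release. The 4 summary lines of each file were all 0 and were left out, so the share of unassigned reads is unknown.

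After filterByExpr (counts of at least 10, total at least 15), which left 639 names untested, TMM factors were computed, and edgeR 4.0.16 gave robust quasi-likelihood F tests from a model of the 3 groups over all 19 libraries, with Benjamini-Hochberg adjustment over 509 miRNAs. The standard error is the log2 fold change divided by the square root of F. Log2 CPM used a prior count of 2. List sums are raw CPM. Arm ratios were compared by exact permutation tests and correlations by 100000 permutations (scipy 1.17.1). Within groups no library was a copy of another (53 pairs, chi-square per degree of freedom 24.7 to 294).

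The members and lists were chosen with earlier results of these data known. Named miRNAs followed fixed rules: the 5 most and 3 least like miR-490-3p by r, seed relatives, neighbours by level and position, and up to 3 called members per list. miR-582-3p, miR-1298-5p, miR-448-3p, list members at or near 0 counts, miR-133a-3p and miR-429-3p in the age contrast were named after their values were seen. miR-9-5p, miR-124-3p, miR-204-5p and miR-143-3p, which edgeR called in no comparison, were also named outside these rules. Both arms matched RefSeq sequences. Alternatives were DESeq2 1.42.0, limma-voom 3.58.1 and other scalings, filters and sets of libraries. Leaving aged SAHA 1 out of the list counts was added after seeing the data.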

Additional observations from a re-analysis of the deposited data

How the results depend on the processing

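Of 29 alternatives, the value of miR-490-3p for aged SAHA against aged vehicle kept its direction and missed the threshold in all 29 (0.11 to 0.24, adjusted p 0.271 to 0.667 by edgeR, DESeq2 or limma-voom), and its age value stayed at -0.47 to -0.37. Some alternatives leave out a library of the group not compared, which can hardly move a value. Counts of alternatives here therefore overstate what was tested. For aged SAHA against young vehicle it missed the threshold in 27 of 29. It passed without aged SAHA 1, and also when aged SAHA 1 and young vehicle 6 were left out together, an alternative chosen after seeing the data (-0.28, adjusted p 0.0443 by edgeR). With 1 library left out this value was -0.32 to -0.19. miR-490-5p missed the threshold in both SAHA comparisons in all 28 alternatives that kept it, and with a filter of CPM of 10 in 5 libraries it was not tested. The arm ratio difference was 0.49 to 0.83 for aged SAHA against aged vehicle and -0.011 to 0.25 against young vehicle with 1 library left out. The correlation of the arms was 0.50 with library size only and the cause was not tested.

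Calls over all miRNAs numbered 20 for age and 46 for aged SAHA against aged vehicle by DESeq2, 26 and 47 by limma-voom, and 18 and 37 without aged SAHA 1 and young vehicle 6. Fitting only the groups compared gave 19 for age. With 1 library left out the SAHA count was 11 to 33 (22 with all libraries). Omitting aged vehicle 1 gave 13, omitting aged vehicle 3 gave 14 and omitting aged SAHA 6 gave 11.

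No pairing by replicate number was seen in the deviations of these libraries. Over 16 same-numbered pairs r was -0.32 to 0.31, with 4 over 0.1. In 6 of 32 checks a library correlated best with its own number. With the number as a block the counts of calls were 8, 15 and 58, and miR-490-3p was at -0.42 in the age contrast, 0.16 in the SAHA contrast and -0.26 between aged SAHA and young vehicle, with miR-490-5p at 0.10, -0.36 and -0.26. No call of either arm changed. The low counts of miR-490-5p limit what can be seen of it: its intervals span over 1 log2 unit.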
